A study of Mus musculus with 6 samples.

Results

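Transcripts of the AMP-activated protein kinase (AMPK) and of the kinases that switch it on were measured in carotid body and adrenal medulla of adult mice. The set is the 10 genes of the deposited table named as alpha, beta and gamma subunits (Prkaa1, Prkaa2, Prkab1, Prkab2, Prkag1, Prkag2, Prkag3) and as upstream kinases (Stk11, Camkk1, Camkk2). All 10 were found, with 1 entry each, among 23511 entries that carry an RPKM value, that is, reads divided by the length of the mRNA and by the depth of the library. The 6 libraries were 3 of the carotid body, the chemosensory organ at the carotid bifurcation, and 3 of the adrenal medulla, the part of the adrenal gland that releases catecholamines. All came from untreated adult C57/BL6 mice with no engineered allele named in the labels, and a pool held tissue of 10 mice, with 18 carotid bodies or 10 adrenal medullas. Each library is thus 1 pool, n counts pools, and the p-values below measure only the spread between these pools.

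AMPK is a heterotrimer that senses a falling energy charge of the cell. The alpha subunit carries the kinase domain, the beta subunit is the scaffold and binds glycogen, and the gamma subunit binds AMP, ADP and ATP. LKB1, the product of Stk11, phosphorylates the activation loop of alpha when AMP or ADP is bound to gamma, and the calcium and calmodulin dependent kinase kinases encoded by Camkk2 and Camkk1 are a second input, with CaMKK2 the better established of them. In the carotid body AMPK has been studied as a possible link between mitochondrial metabolism and the potassium channels of the oxygen-sensing glomus cells. The comparison asks whether the carotid body differs from the related adrenal medulla in which isoforms of this kinase it transcribes.

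Isoform shares depend on reads of paralogues being told apart. Shown are the coding stretches that hold the longest identical run of the alpha pair and of the Camkk pair. Other stretches with fewer differing bases were not searched for. They were read from the GENCODE M21 transcripts (GRCm38) of the RefSeq accessions in the table, 5′ to 3′, with the bases that differ between the members of a pair in capitals.
Prkaa1: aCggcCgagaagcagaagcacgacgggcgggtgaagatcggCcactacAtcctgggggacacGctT
Prkaa2: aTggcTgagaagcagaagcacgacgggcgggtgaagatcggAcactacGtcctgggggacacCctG
Camkk1: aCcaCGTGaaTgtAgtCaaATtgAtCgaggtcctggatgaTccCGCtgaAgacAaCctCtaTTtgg
Camkk2: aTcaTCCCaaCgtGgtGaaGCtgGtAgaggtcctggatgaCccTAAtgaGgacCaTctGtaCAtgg
The alpha stretches lie near the start of the coding sequence, at bases 42 to 107 of the Prkaa1 transcript (chromosome 15) and 93 to 158 of the Prkaa2 transcript (chromosome 4). They share a run of 35 bases and differ at 6 of 66. The Camkk stretches, at bases 746 to 811 of Camkk1 (chromosome 11) and 920 to 985 of Camkk2 (chromosome 5), differ at 22 of 66 and share at most 14 bases in a row. The longest shared coding run was 23 bases between Prkab1 and Prkab2 and 15 bases between Prkag1 and Prkag2. Only 11 of the 25-base windows of the Prkaa1 transcript also occur in a Prkaa2 transcript. The read length is not given in the sources used here.

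Overlaps with other genes were larger than overlaps between isoforms. The antisense transcript B130046B21Rik covers 42.7% of the 25-base windows of Prkag1, and Cbarp, listed in the table as Dos, covers 8.18% of those of Stk11 on the opposite strand. The sources do not say whether strand was kept, so reads of these partners cannot be separated from those of Prkag1 and Stk11. The deposited table counts 145 to 232 reads for B130046B21Rik in a carotid body library and 127 to 213 in an adrenal medulla library. Prkag1 had 827 to 1202 reads in the carotid body against 896 to 1352 in the adrenal medulla. Dos had 536 to 1100 reads in carotid body libraries and 774 to 2035 in adrenal medulla libraries, and Stk11 had 839 to 1582 in carotid body libraries and 634 to 1652 in adrenal medulla libraries.

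The libraries held 13266225 to 16445925 reads. Apart from Prkag3, a member had 97 to 1652 reads in a library. Counting alone leaves an error of 10.2% at 97 reads, a figure that leaves out the error of amplification. The tissues are whole organs, and fewer cells of a type cannot be told apart from less RNA per cell. The labels were met by Th, the rate-limiting enzyme of catecholamine synthesis, at 434 to 646 RPKM in the carotid body against 887 to 2489 RPKM in the adrenal medulla. Pnmt, the adrenaline-forming enzyme that marks the medulla, ran at 1.81 to 16.8 RPKM in the carotid body against 2708 to 6042 RPKM in the adrenal medulla. Markers of some other cells moved with the tissue. Summed over 10 adrenal cortex markers, none at 0 in an adrenal medulla library, the level was 93.5 to 195 RPKM in the carotid body against 11380 to 14292 RPKM in the adrenal medulla. In carotid body libraries 8 glia markers summed to 323 to 344 RPKM, 8 smooth muscle and pericyte markers to 2533 to 3057 RPKM and 8 fibroblast markers to 2249 to 2964 RPKM. In adrenal medulla libraries the same sums were 27.6 to 45.3, 110 to 113 and 68.1 to 179 RPKM, with none of these markers at 0 in any library. Within these sums, the glia marker Erbb3 and the muscle marker Des overlapped between the tissues. Sums of 8 endothelium markers did not overlap, at 307 to 327 RPKM in the carotid body against 170 to 217 RPKM in the adrenal medulla, though Tek, Kdr and Emcn did. Sums of 6 neuron markers overlapped, at 158 to 207 RPKM in the carotid body against 97.4 to 244 RPKM in the adrenal medulla. Those of 7 leukocyte markers also did, at 627 to 740 RPKM in the carotid body against 275 to 701 RPKM in the adrenal medulla. Within these 2 lists Prph, Tubb3 and Csf1r were higher in each carotid body pool, and Nefm and the barely detected Cd79a were lower. Carotid body pool 2 stood apart by fat transcripts, with the brown fat gene Ucp1 at 221 RPKM, against 0 and 2.23 RPKM in pools 1 and 3 and 0 to 2.48 RPKM in the adrenal medulla. Summed over 8 general fat cell markers the level was 453, 3400 and 944 RPKM in carotid body pools 1, 2 and 3 and 813, 263 and 2367 RPKM in adrenal medulla pools 1, 2 and 3, highest in pool 2 among carotid body libraries and in pool 3 among adrenal medulla libraries. The part that these differences in cell makeup play in the values below was not tested.

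On the RPKM scale the same order held broadly in both tissues. Prkag1 and Stk11 were the 2 highest members in 6 of 6 libraries, Prkab1 ranked 3 in 6 of 6, and Prkaa2 ranked 9 and Prkag3 ranked 10 in 6 of 6. Between these lay Prkag2, Prkaa1, Camkk2, Prkab2 and Camkk1, whose ranks changed from library to library. The ranges of Prkag1 and Stk11, of Prkag2 and Prkaa1, and of Prkab2 and Camkk1 overlapped within each tissue. Prkag2 ranked above Prkaa1 in 3 of 3 carotid body libraries, and below it in 3 of 3 adrenal medulla libraries. In carotid body pool 2 they were nearly level, at 9.12 RPKM for Prkag2 and 9.05 RPKM for Prkaa1. By reads without division by length, Prkaa1 ranked 3 and Prkag2 ranked 5 in that pool. The place of Stk11 depends on its length: the table lists 1.643 kb, while the GENCODE transcript of the same accession has 2.566 kb. With the longer length Stk11 would stand at 22.5, 36.7 and 39.6 RPKM in carotid body pools 1, 2 and 3 and at 18.4, 22.0 and 39.2 RPKM in adrenal medulla pools 1, 2 and 3, below Prkag1 in each library. The other members' listed lengths were within 1.17 times those of the transcripts.

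**Figure D1:**
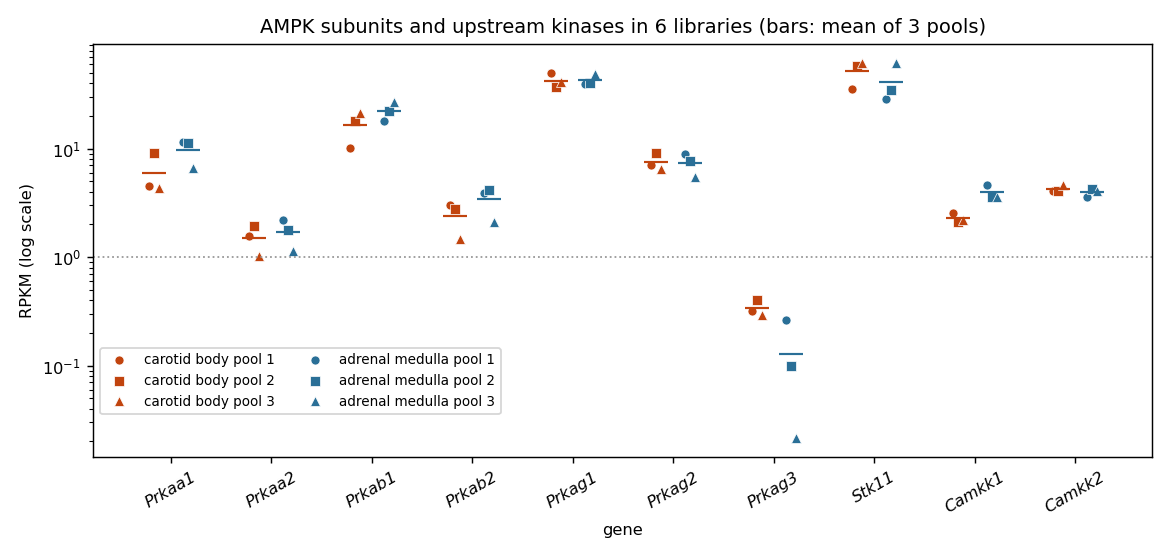
RPKM of the 10 members on a log axis, carotid body pools in orange and adrenal medulla pools in blue; symbols are single pools, short bars are means of 3 pools and the dotted line is 1 RPKM. The tissues overlap for 8 of 10 members (of all genes tested, 22.3% have every carotid body pool above the adrenal medulla pools and 14.7% below), Camkk1 lies lower in every carotid body pool, and Prkag3 stays under 1 RPKM throughout.

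Of the catalytic alpha subunits, Prkaa1 was the more abundant in each library. Prkaa1, which encodes alpha1, the widespread form, stood at 4.55, 9.05 and 4.36 RPKM in carotid body pools 1, 2 and 3 and at 11.5, 11.2 and 6.65 RPKM in adrenal medulla pools 1, 2 and 3. Carotid body pool 2 lay above adrenal medulla pool 3, and all other carotid body values lay below all adrenal medulla values. The log2 difference, carotid body minus adrenal medulla on the log2(RPKM + 1) scale, was -0.66 ± 0.32 (SE), with a 95% interval of -1.39 to 0.07 and a limma adjusted p of 0.201. Differences on this scale understate those of low genes. Leaving out any 1 library gave limma adjusted p-values of 0.0654 to 0.477, none of them past the threshold. With carotid body 2 and adrenal medulla 3 both left out the difference was -1.18 (limma adjusted p = 0.0081, in a setting that called 15.5% of all genes lower). These are the highest carotid body and the lowest adrenal medulla pools for Prkaa1, so leaving them out had to widen the difference, and that value does not support one.

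Prkaa2, which encodes alpha2, the form that prevails in skeletal and heart muscle, was low in both tissues. It was at 1.58, 1.95 and 1.02 RPKM in carotid body pools 1, 2 and 3 and at 2.19, 1.79 and 1.14 RPKM in adrenal medulla pools 1, 2 and 3, and the groups overlapped. The log2 difference was -0.10 ± 0.22, with a 95% interval of -0.61 to 0.40 (limma adjusted p = 0.814). A difference of 1.5-fold in the lower direction on this scale thus lies inside what these pools allow. With a pseudocount of 0.1 the interval reached further down, to a ratio of 0.508. The log2 difference was 0.046 without carotid body pool 3, and leaving out adrenal medulla pool 1 gave 0.023.

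As a share of the summed alpha RPKM, Prkaa1 made up 74.2%, 82.3% and 81.1% in carotid body pools 1, 2 and 3 and 84.0%, 86.2% and 85.3% in adrenal medulla pools 1, 2 and 3. Its share was lower in every carotid body pool than in any adrenal medulla pool, with means of 79.2% ± 4.36 over carotid body pools and 85.2% ± 1.08 over adrenal medulla pools (± is the SD over 3 pools). The exact permutation test, two-sided, gave p = 0.1, the smallest that 3 against 3 allows, or 0.25 adjusted over the 5 shares examined. The difference of -6.01 percentage points lay between -7.56 and -3.52 when single libraries were left out, with -3.52 without carotid body pool 1. Without division by mRNA length the share of reads was 68.5% ± 5.64 over carotid body pools and 76.6% ± 1.54 over adrenal medulla pools.

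The beta subunits were led by Prkab1 in both tissues. Prkab1, which encodes beta1, had 10.2, 18.1 and 21.2 RPKM in carotid body pools 1, 2 and 3 and 17.8, 22.1 and 27.1 RPKM in adrenal medulla pools 1, 2 and 3. Carotid body pool 1 was the lowest and adrenal medulla pool 3 the highest, with the other values overlapping. The log2 difference was -0.46 ± 0.30 (95% interval -1.14 to 0.23, limma adjusted p = 0.357), and -0.16 without carotid body pool 1.

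Prkab2, which encodes beta2, a form abundant in muscle, had 3.00, 2.78 and 1.47 RPKM in carotid body pools 1, 2 and 3 and 3.93, 4.18 and 2.12 RPKM in adrenal medulla pools 1, 2 and 3. Pool 3 was the lowest of its tissue on both sides. The log2 difference was -0.36 ± 0.28 (95% interval -1.0 to 0.27, limma adjusted p = 0.434), and -0.15 without carotid body pool 3. Prkab1 made up 77.3%, 86.7% and 93.5% of the beta RPKM in carotid body pools 1, 2 and 3 and 81.9%, 84.1% and 92.8% in adrenal medulla pools 1, 2 and 3. Within each tissue the share was lowest in pool 1 and highest in pool 3, and the means of 85.8% ± 8.15 over carotid body pools and 86.2% ± 5.73 over adrenal medulla pools differed by less than the spread between pools (exact permutation p = 1).

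The gamma subunits had the smallest log2 differences of the tested members. Prkag1, which encodes gamma1, the widespread form, had 49.3, 37.1 and 40.7 RPKM in carotid body pools 1, 2 and 3 and 39.7, 40.6 and 48.9 RPKM in adrenal medulla pools 1, 2 and 3. The groups overlapped fully, and the log2 difference of -0.027 ± 0.22 had a 95% interval of -0.52 to 0.46 (limma adjusted p = 0.957). That interval corresponds to a ratio of 0.698 to 1.38. The sign turned to 0.062 with carotid body pool 2 left out and to 0.067 with adrenal medulla pool 3 left out.

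Prkag2, which encodes gamma2, mutated in an inherited human heart muscle disease, had 7.06, 9.12 and 6.52 RPKM in carotid body pools 1, 2 and 3 and 8.85, 7.72 and 5.52 RPKM in adrenal medulla pools 1, 2 and 3. The groups overlapped, with a log2 difference of 0.044 ± 0.24 (95% interval -0.51 to 0.60, limma adjusted p = 0.936) that became -0.025 under median-ratio scaling and -0.052 under quantile scaling. The table gives this gene 1 entry for 3 RefSeq transcripts, so its long and short forms are not resolved. Of the gamma RPKM, Prkag1 made up 84.1% ± 3.95 in carotid body pools against 85.0% ± 4.37 in adrenal medulla pools, and Prkag2 15.2% ± 3.79 against 14.7% ± 4.14 (SD over 3 pools). The differences were smaller than the spread between pools, and the exact permutation p was 0.9 for either share.

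Prkag3, which encodes gamma3, the form of fast skeletal muscle, was close to the limit of detection. It had 13, 15 and 13 reads in carotid body pools 1, 2 and 3 and 10, 4 and 1 reads in adrenal medulla pools 1, 2 and 3, which is 0.295 to 0.399 RPKM in the carotid body against 0.0214 to 0.263 RPKM in the adrenal medulla. The carotid body pools lay above the adrenal medulla pools, as they did for 10.3% of all genes under the filter of 1 RPKM in at least 3 libraries. Those genes include some with no reads in any library, which cannot separate, so among genes with reads the share is higher. With no filter limma gave a log2 difference of 0.25 and an adjusted p of 0.17. Summed over 10 skeletal muscle markers the level was 24.9 to 34.3 RPKM in the carotid body against 15.9 to 25.8 RPKM in the adrenal medulla, with 0 to 2 markers at 0 in a carotid body library and 2 to 3 in an adrenal medulla library. Acta1, skeletal muscle actin, gave 14.3 to 21.4 RPKM of that sum in carotid body libraries and 11.6 to 19.8 RPKM in adrenal medulla libraries. Tnni2, a troponin of fast muscle, ran at 3.39 to 7.44 RPKM in the carotid body against 0.315 to 1.28 RPKM in the adrenal medulla, and Tnnt3, another, at 2.18 to 5.16 RPKM in the carotid body against 0 to 0.470 RPKM in the adrenal medulla. Like Prkag3, these troponins and Mb, the myoglobin gene, were higher in each carotid body pool than in any adrenal medulla pool, whereas Ckm, Myh1, Myh2, Myh4, Actn3, Acta1 and Mylpf overlapped, with Myh4 at 0 in 4 of 6 libraries. The part of muscle tissue in the Prkag3 reads was not tested.

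**Figure D2:**
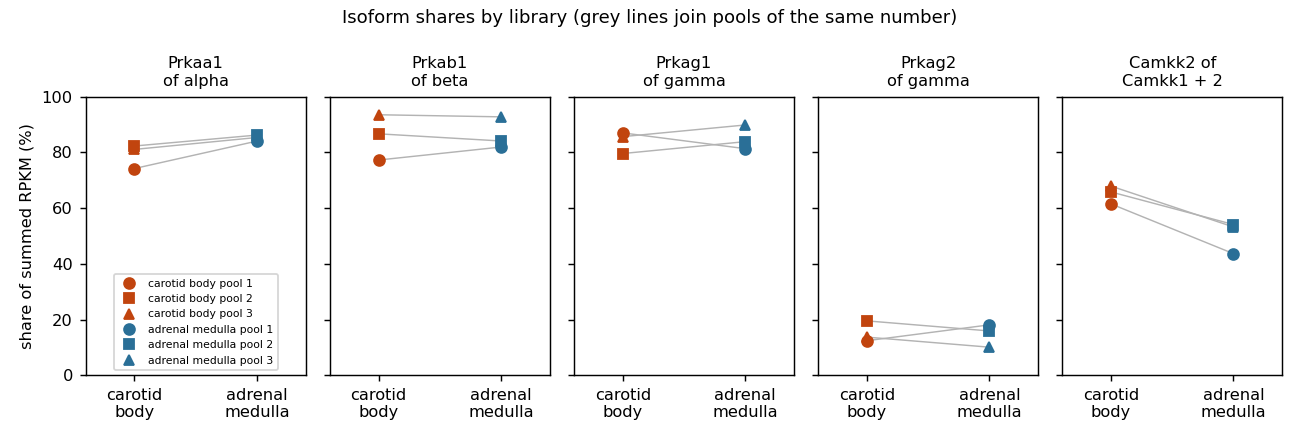
Share of each isoform in the summed RPKM of its subunit type, in percent, with carotid body pools on the left and adrenal medulla pools on the right of each panel; grey lines join pools of the same number. The Prkaa1 share is lower and the Camkk2 share higher in all 3 carotid body pools, while the Prkab1, Prkag1 and Prkag2 shares overlap.

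Among the upstream kinases, Stk11 was the most abundant and Camkk1 the one whose levels did not overlap between tissues. Stk11, the gene of LKB1, had 35.2, 57.3 and 61.8 RPKM in carotid body pools 1, 2 and 3 and 28.7, 34.4 and 61.1 RPKM in adrenal medulla pools 1, 2 and 3. Adrenal medulla pool 3 was as high as the highest carotid body pools, and the log2 difference was 0.34 ± 0.34 (95% interval -0.43 to 1.11, limma adjusted p = 0.563). Leaving out adrenal medulla pool 3 gave 0.65 and leaving out pool 1 of that tissue gave 0.12, called in neither case.

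Camkk1, the gene of CaMKK1, stood at 2.53, 2.11 and 2.21 RPKM in carotid body pools 1, 2 and 3 and at 4.66, 3.60 and 3.56 RPKM in adrenal medulla pools 1, 2 and 3. Every carotid body pool lay below every adrenal medulla pool, as was so for 14.7% of all genes tested. Carotid body pools averaged 2.28 ± 0.218 RPKM and adrenal medulla pools 3.94 ± 0.624 RPKM (SD over 3 pools). The log2 difference of -0.59 ± 0.19 (95% interval -1.02 to -0.15) missed the threshold at a limma adjusted p of 0.0618, and passed it at 0.0451 with the pool number as a block. It also passed under median-ratio scaling (limma adjusted p = 0.0392), under quantile scaling (0.0217) and without adrenal medulla pool 3 (0.0473). Those 3 settings called 9.42%, 10.4% and 11.0% of all genes lower and the block 10.2%, where the main setting called 7.73%. Adrenal medulla pool 3 is the lowest of its tissue for Camkk1, so leaving it out had to widen the difference, and that pass is no support. Leaving out any other single library gave limma adjusted p-values of 0.101 to 0.184. Over all 15 alternatives the limma adjusted p of Camkk1 ran from 0.0217 to 0.184. Markers of cortex and glia, among others, differed between the same libraries as given above, and their part in this value was not tested.

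Camkk2, the gene of CaMKK2, did not pass the test. It had 4.03, 4.06 and 4.66 RPKM in carotid body pools 1, 2 and 3 and 3.61, 4.24 and 4.06 RPKM in adrenal medulla pools 1, 2 and 3, with the groups overlapping. Its log2 difference of 0.08 ± 0.19 (95% interval -0.36 to 0.51, limma adjusted p = 0.836) was -0.061 under quantile scaling. Camkk2 made up 61.5%, 65.8% and 67.9% of the Camkk RPKM in carotid body pools 1, 2 and 3 and 43.7%, 54.1% and 53.2% in adrenal medulla pools 1, 2 and 3. All carotid body pools thus lay above all adrenal medulla pools, averaging 65.1% ± 3.26 over carotid body pools and 50.3% ± 5.80 over adrenal medulla pools (SD over 3 pools). The difference of 14.7 percentage points had an exact permutation p of 0.1, again the smallest possible, and 0.25 adjusted over the 5 shares. It was 11.4 to 16.6 with any 1 library left out, and 13.6 in reads without division by length. This share is computed from the Camkk1 and Camkk2 levels given above, of which only those of Camkk1 did not overlap. It is thus not a result separate from the Camkk1 difference, which was not called in the main fit.

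Across the set, 9 of 10 members passed the filter and 0 of 9 were called at a limma adjusted p under 0.05. Of all 13357 genes tested 21.9% were called, 14.2% higher and 7.73% lower. At an unadjusted p under 0.05 there was 1 of 9 members, Camkk1, beside 4305 of all 13357 genes. With the pool number as a block 1 member was called, Camkk1, lower in the carotid body, where 10.2% of all genes were called lower. The median log2 difference of the 9 tested members was -0.10, against 0.02 over all genes tested, and the median absolute difference was 0.34 against 0.36. The 95% intervals of the 9 members together reached from -1.39 to 1.11. Differences of about 2-fold in Prkaa1, Prkab1, Prkab2, Stk11 or Camkk1 thus remain within what 3 pools a tissue can show. With a pseudocount of 0.1 the same held for Prkaa2, whose interval reached down to a ratio of 0.508.

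**Figure D3:**
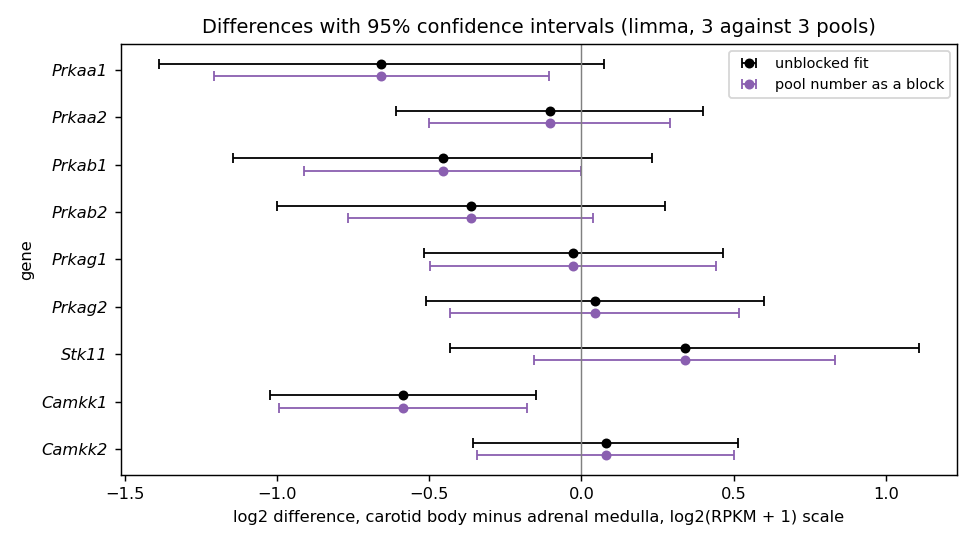
Log2 differences, carotid body minus adrenal medulla, of the 9 tested members with 95% confidence intervals from limma, without a block (black) and with the pool number as a block (purple). The Camkk1 interval lies below 0 in both fits, and Prkaa1 and Prkab1 do so only with the block, where their limma adjusted p-values are 0.0807 and 0.129.

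Summed by subunit on the RPKM scale, gamma transcripts exceeded beta and beta exceeded alpha in 6 of 6 libraries. In reads without division by length gamma was still the largest sum, but alpha exceeded beta in pools 1 and 2 of both tissues. The alpha sum was 6.13, 11.0 and 5.38 RPKM in carotid body pools 1, 2 and 3 and 13.7, 13.0 and 7.79 RPKM in adrenal medulla pools 1, 2 and 3. The beta sum was 13.2, 20.9 and 22.6 RPKM in carotid body pools 1, 2 and 3 and 21.7, 26.2 and 29.2 RPKM in adrenal medulla pools 1, 2 and 3. Each carotid body pool was below the adrenal medulla pool of its number for both sums, though the tissues overlapped. In reads without division by length, the beta sums did not overlap (exact permutation p = 0.1, or 0.4 adjusted over the 4 sums). The gamma sum stayed at 46.6 to 56.7 RPKM in the carotid body against 48.4 to 54.5 RPKM in the adrenal medulla, so the ratio of gamma to alpha was 4.24 to 9.25 in the carotid body against 3.56 to 6.99 in the adrenal medulla. By reads that ratio was 1.62 to 3.18 in carotid body pools and 1.35 to 2.5 in adrenal medulla pools. Carotid body pools averaged 58.0 ± 14.3 RPKM and adrenal medulla pools 49.3 ± 17.0 RPKM for the sum of the 3 upstream kinases, most of it Stk11, whose listed length is in doubt as given above (SD over 3 pools). The log2 ratios of the means were -0.62 for alpha, -0.45 for beta, -0.0083 for gamma and 0.23 for the kinases, with exact permutation p-values of 0.2, 0.2, 1 and 0.8 and 0.4, 0.4, 1 and 1 adjusted over the 4 sums. With single libraries left out the ratio of the kinases ran from 0.063, when adrenal medulla pool 1 was dropped, to 0.55, when pool 3 of that tissue was dropped.

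In pool 3 of each tissue, several members deviated alongside their mRNA length. In adrenal medulla pool 3, the 3 members with the shortest listed mRNAs lay above the tissue mean on the log2(RPKM + 1) scale, Stk11 by 0.63, Prkab1 by 0.29 and Prkag1 by 0.19. In the same pool Prkaa1, Prkab2, Prkag2 and Prkaa2, with 3.34 to 8.201 kb, lay 0.32 to 0.46 below it, while Camkk1, at 3.466 kb, was at -0.11 and Camkk2, at 4.903 kb, at 0.03. Carotid body pool 3 had the same signs for Stk11 (0.30), Prkab1 (0.40), Prkab2 (-0.44), Prkaa1 (-0.32) and Prkaa2 (-0.30), but not for Prkag1 (-0.05). Carotid body pool 1 showed no such order: Prkab1 (-0.59) and Stk11 (-0.49) lay lowest there, and Prkag1, as short as Stk11 in the table, lay at 0.22. Across all genes tested, the correlation of deviation with log2 length was -0.011 in carotid body pool 1, 0.23 in carotid body pool 2 and -0.26 in carotid body pool 3, and 0.33, 0.15 and -0.33 in adrenal medulla pools 1, 2 and 3, a description over genes that share a library. Over all genes tested, those over 4 kb deviated by a median of -0.11 in carotid body pool 3, 0.11 in carotid body pool 2, -0.27 in adrenal medulla pool 3 and 0.19 in adrenal medulla pool 1. Those under 2 kb deviated by 0.045, -0.017, 0.076 and -0.081 in the same pools. Between tissues the median log2 difference of all genes over 4 kb was 0.078, and that of genes under 2 kb was -0.027. The part of length in the spread of Prkaa1, Prkab2 and Stk11 was not tested.

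**Figure D4:**
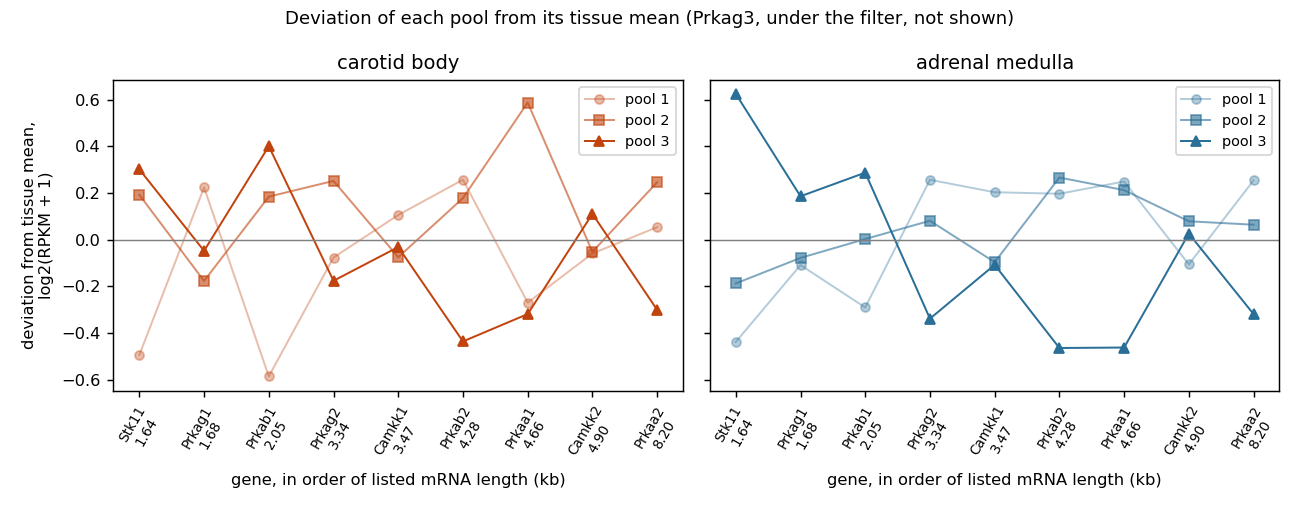
Deviation of each pool from its tissue mean on the log2(RPKM + 1) scale for the 9 tested members, ordered by listed mRNA length in kb, carotid body on the left and adrenal medulla on the right. In adrenal medulla pool 3 the shortest transcripts lie above 0 and most long ones below it, from 0.63 for Stk11 to -0.46 for Prkaa1 and Prkab2.

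Beyond the members, 65 further genes of the pathway in 6 lists were read from the same fit, 55 of which passed the filter. In the carotid body 3 of these were higher and 5 lower, and 47 were not called, so 14.5% were called where 21.9% of all genes were. Their median log2 difference was 0.04. With the pool number as a block 5 were higher, the 2 added being Cab39l and Ak4, and 6 were lower, the added one being Pfkfb2. These 3 genes were chosen for mention after their values were seen. None of 4 partners of the LKB1 complex (Strada, Stradb, Cab39, Cab39l) was called, with a median of -0.27. None of 11 other regulators and scaffolds, which include the calmodulin genes, was called (median 0.02), nor any of 6 phosphatases acting on AMPK (median -0.14).

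Of 8 tested AMPK-related kinases only Sik1 was called (12.5%, against 21.9% of all genes), lower in the carotid body, and the median was 0.30. Sik1, a salt-inducible kinase that LKB1 also activates, had 2.58, 3.02 and 1.51 RPKM in carotid body pools 1, 2 and 3 and 5.94, 5.09 and 3.95 RPKM in adrenal medulla pools 1, 2 and 3. Every carotid body pool lay below every adrenal medulla pool, as for 14.7% of all genes tested. The log2 difference was -0.84 ± 0.25 (limma adjusted p = 0.0407). The call was lost without carotid body pool 1 (0.0864) or 3 (0.164), with adrenal medulla pool 1 (0.118) or 2 (0.12) left out, and with no filter (0.112).

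Of 16 tested phosphorylation targets of AMPK, 2 were higher, 2 were lower and 12 were not called, with a median of 0.42. The share called was 25%, against 21.9% of all genes. Ppargc1a, which encodes the coactivator PGC-1alpha of mitochondrial biogenesis, had 3.70, 3.86 and 2.17 RPKM in carotid body pools 1, 2 and 3 and 0.722, 0.410 and 0.234 RPKM in adrenal medulla pools 1, 2 and 3 (log2 1.53 ± 0.22, limma adjusted p = 0.00141). It is also abundant in brown fat, whose 6 markers summed to 349, 1145 and 1049 RPKM in carotid body pools 1, 2 and 3. In adrenal medulla pools 1, 2 and 3 they summed to 340, 498 and 439 RPKM. Most of each carotid body sum but that of pool 2 was Cox8b, at 334, 531 and 1021 RPKM. Cox8b was at 311, 453 and 333 RPKM in the adrenal medulla pools. Cidea, like Ucp1, was high in carotid body pool 2 only, at 5.33, 276 and 9.71 RPKM in the carotid body pools. In the adrenal medulla pools Cidea was at 7.35, 2.59 and 8.20 RPKM. The part of brown fat in the Ppargc1a difference was not tested. Tbc1d1, a regulator of glucose transporter traffic, averaged 1.72 ± 0.125 RPKM in carotid body pools and 0.914 ± 0.101 RPKM in adrenal medulla pools (log2 0.51, limma adjusted p = 0.0430), but lost its call in 10 of 15 alternatives, among them each of the 6 without 1 library (0.0676 to 0.116). Its relative Tbc1d4 was lower, averaging 2.64 ± 0.983 RPKM in carotid body pools and 8.34 ± 4.54 RPKM in adrenal medulla pools (log2 -1.28, limma adjusted p = 0.0357). That call was lost without carotid body pool 1 (0.10) or 3 (0.132), with adrenal medulla pool 1 left out (0.0779) and with no filter (0.149). Acaca and Acacb, the acetyl-CoA carboxylases, were not called (0.84 and 0.79, limma adjusted p = 0.585 and 0.359). Acaca had 59.7 RPKM in carotid body pool 2, the pool rich in Ucp1, against 3.16 and 5.90 RPKM in pools 1 and 3 and 4.08 to 9.89 RPKM in the adrenal medulla. These 2 genes were chosen after their values were seen.

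Enzymes that pass phosphate between adenylates and creatine held the largest differences of the 6 lists. Of 10 tested in this list, 1 was higher in the carotid body, 2 lower and 7 not called, and the median was -0.46. The share called was 30%, against 21.9% of all genes. Ckb, the brain-type creatine kinase, had 195, 157 and 231 RPKM in carotid body pools 1, 2 and 3 and 46.8, 52.7 and 58.0 RPKM in adrenal medulla pools 1, 2 and 3, a log2 difference of 1.86 ± 0.23 (limma adjusted p = 6.09e-04). Ak5, an adenylate kinase abundant in brain, had 0.444, 0.462 and 0.580 RPKM in carotid body pools 1, 2 and 3 and 4.44, 6.34 and 4.74 RPKM in adrenal medulla pools 1, 2 and 3 (log2 -2.03 ± 0.19, limma adjusted p = 1.23e-04). Ckmt1, the ubiquitous mitochondrial creatine kinase, averaged 8.20 ± 2.40 RPKM over carotid body pools and 20.4 ± 1.37 RPKM over adrenal medulla pools (log2 -1.25 ± 0.25, limma adjusted p = 0.00724). The groups did not overlap for these 3 genes. Of all genes tested, 22.3% had every carotid body pool above the adrenal medulla pools and 14.7% had every one below. Each of the 3 genes stayed called, in the same direction, in all 15 alternatives. Ckb is also high in smooth muscle and in glia, whose marker sums were higher in the carotid body as given above; the part of these cells was not tested.

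**Figure D5:**
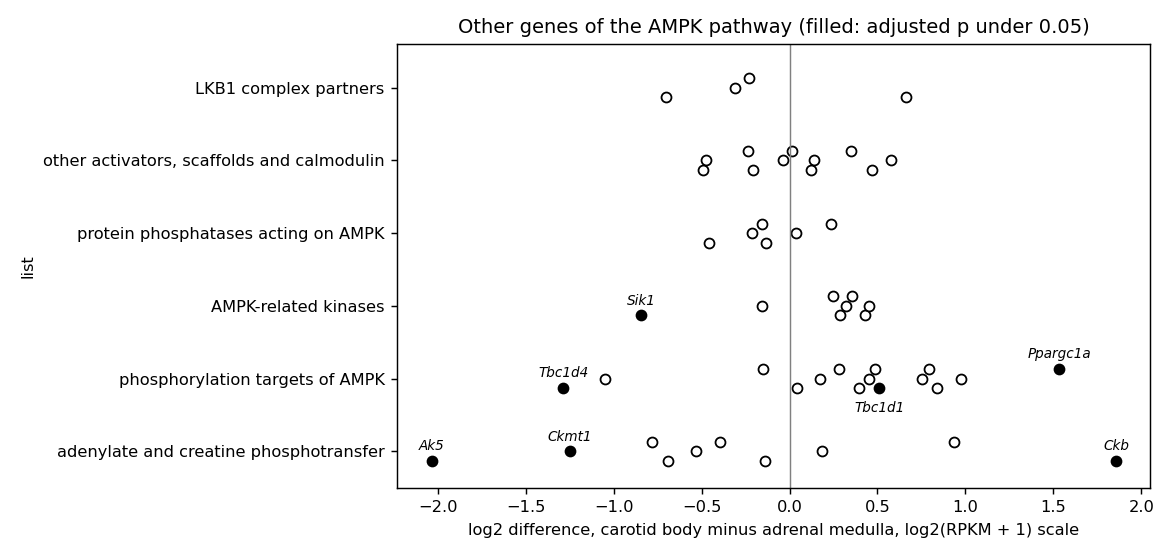
Log2 differences, carotid body minus adrenal medulla, of tested genes in 6 lists of the AMPK pathway, 1 called gene left out; filled symbols are genes with a limma adjusted p under 0.05. Genes around LKB1, calmodulin and the phosphatases lie between -0.70 and 0.66 with none filled, and the phosphotransfer enzymes reach from -2.03 for Ak5 to 1.86 for Ckb.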

How the data were processed

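RNA of 3 carotid body and 3 adrenal medulla pools was sequenced. Per the labels' protocols, the RNA went through amplification (Amino Allyl MessageAmp II kit), fragmentation and construction of Illumina libraries. Collection ran over 2 days, and the labels do not tie pools to days. Reads were aligned with Bowtie 0.9.8 to mm9, per the submitters' processing notes. The authors deposited RPKM values, normalised to mRNA length and mapped reads, for 23511 of 26728 entries, per the file headers. RPKM multiplied by the listed mRNA length, another deposited column, came out as whole reads, within 0.01, for 106276 of 106276 values above 0. With the 3217 entries of no length, kept out of the tests, these reads summed to the depth in 6 of 6 libraries.

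Tissues were compared on log2(RPKM + 1) with limma 3.58.1 (R 4.3.3), two-sided, with a trended empirical Bayes variance and without a block, over 13357 genes of at least 1 RPKM in at least 3 libraries. A call needed an adjusted p (Benjamini-Hochberg, over all genes tested) under 0.05. The code of the fit was run on simulated data with independent noise for each gene and library. Such data lack the deviations that many genes of a pool share, so that run does not measure false calls here. Shares and sums were compared by exact permutation over libraries. Alternatives were pseudocounts of 0.1 and 0.5, no filter or 1 RPKM in 1 library, median-ratio and quantile scaling, limma voom on recovered reads, the block and left-out libraries. The pool number served as a block in alternatives only. Deviations from the tissue means across genes correlated at 0.259, 0.128 and 0.473 between same-numbered pools 1, 2 and 3. Of the differently numbered pairs, carotid body 2 with adrenal medulla 1 reached 0.291 and the other 5 lay between -0.623 and 0.0144. As 0.291 is above 0.259 and 0.128, these values do not establish that the numbers pair the pools. The labels do not say what a number marks, and deviations also went with mRNA length in most pools.

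The 10 members were named whatever their values, with up to 4 called genes of the largest difference per list. Of these, 1 gene of the target list is counted but not reported here. Members and lists were chosen with earlier results of these data known. Tables and plots used Python 3.11.15, pandas 2.3.3, numpy 2.4.6 and matplotlib 3.10.9.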

Additional observations from a re-analysis of the deposited data

How the results depend on the processing

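No alternative called a member higher in the carotid body. Against 0 in the main comparison, 1 member was called lower under median-ratio scaling, quantile scaling and the block by pool number, each time Camkk1. With carotid body 2 and adrenal medulla 3 both left out 1 was called, Prkaa1. These are its highest and lowest pools of their tissues, so that this call is no support. Leaving out single libraries gave 0 to 1, the 1 being Camkk1 without adrenal medulla pool 3. That is its lowest pool of the tissue, so this call is no support either. Over the whole table, leaving out both pools called 2067 genes lower, against 1033; single libraries left out gave 692 to 1464 lower and 1460 to 1999 higher. For the 6 pathway lists, the block called 5 higher against 3, no filter called 3 lower against 5, leaving out both pools gave 10 lower, and leaving out single libraries gave 2 to 8 lower and 2 to 4 higher. Signs turned for small differences: without both pools Prkag1 was at 0.15 and Prkag2 at -0.25, Prkag2 was at -0.025 and -0.052 under median-ratio and quantile scaling, and Camkk2 at -0.061 under quantile scaling. With single libraries left out Prkaa2 ran from -0.26 to 0.046, Prkag1 from -0.14 to 0.067 and Prkag2 from -0.13 to 0.17. In percentage points, the shares without both pools were 2.38 for Prkab1, 3.73 for Prkag1 and -3.95 for Prkag2, and with single libraries left out -4.29 to 3.83, -2.76 to 1.49 and -1.79 to 2.21. The gamma sum had a log2 ratio of 0.00141 in reads without division by length, 0.10 without both pools and -0.10 to 0.049 with single libraries left out. The cause of these changes was not tested. Prkaa1, Prkab1, Prkab2 and Camkk1 stayed negative and Stk11 positive in all 15 alternatives. With the block, the exact paired sign-flip test over 3 pairs gave p = 0.25, the smallest it allows, for the Prkaa1 and Camkk2 shares; apart from Camkk1, it and the blocked fit changed no other member's call.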
